A study of Homo sapiens with 2 samples.

Results

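RAD50 (ENSG00000113522) held 3 of the 647 ac4C peaks listed for A549 cells, a human lung adenocarcinoma line, and these peaks did not change in the same direction after NAT10 knockout. Of the 3 peaks, 2 in the first part of the gene were lower in the knockout and 1 further along was higher. All rows that carry the gene name RAD50 were taken. The gene itself was chosen by the deposited log2 fold changes of its peaks, so these values are given as a description and no test was made of them. The data come from 2 acRIP-seq libraries, in which fragments of total RNA that carry N4-acetylcytosine (ac4C) are captured with an antibody and sequenced. One library was from unedited A549 cells (WT) and one from A549 cells in which CRISPR/Cas9 had removed part of NAT10 (NAT10-KO). The knockout cells were 1 clone grown from a single cell, and the labels give no treatment for either group. With 1 library per group, no value below has a replicate check, and the p-values copied from the table compare these libraries and not the conditions.

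RAD50 is an ATPase of the SMC family, a group of proteins with long coiled coils that hold or bridge DNA. Together with the nuclease MRE11 and the adaptor NBN it forms the MRN complex, which binds broken DNA ends, tethers them and helps to switch on the kinase ATM. NAT10 is the enzyme that writes ac4C on RNA. A peak is a stretch of transcript with more reads in the pull-down than in the input. It may consist of several blocks where the transcript is spliced, and the table then gives the blocks and leaves out the stretches between them.

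All RAD50 peaks lay on the plus strand of chromosome 5 (GRCh38 coordinates, counted from 1). In the RefSeq annotation of GRCh38.p14, RAD50 runs from 132556977 to 132646349, a length of 89.4 kb. The first peak, chr5:132579429-132579880, began 22.5 kb after the start of the gene and the table assigns it to an exon without further division. The second peak, chr5:132588028-132588835, began at 31.1 kb and was assigned to the CDS. The third peak, chr5:132595785-132604835, ran from 38.8 to 47.9 kb and was also assigned to the CDS. The peaks were separated by 8147 bases between the first and the second and by 6949 bases between the second and the third. All these distances are along the genome, and distances along the spliced transcript were not analysed here. No peak was listed in the 41.5 kb after the third, which make up 46.5% of the gene and hold its 3′ end. Nor was one listed in the first 22.5 kb.

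**Figure D1:**
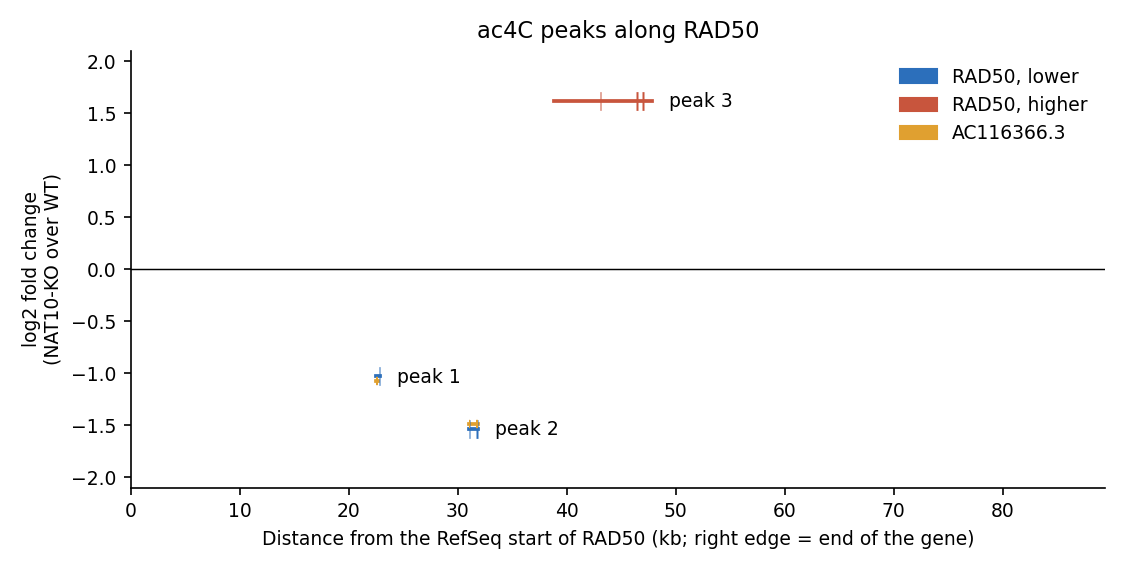
Listed ac4C peaks along RAD50, with distance from the RefSeq start of the gene in kb on the x axis and the log2 fold change (NAT10-KO over WT) on the y axis. Lines span a peak, ticks mark its blocks, and the peaks of AC116366.3 are drawn over those of RAD50. The peaks at 22.5 and 31.1 kb lie below 0 and the peak from 38.8 kb lies above 0.

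The first peak had a log2 fold change of -1.03 between NAT10-KO and WT, which is 0.490 of the WT value on the linear scale. The deposited p of this difference was 0.0302 and its FDR 0.0562. It was the reduced peak closest to the limit: of the 77 peaks that passed -1 with a p under 0.05, none had a smaller decrease. Its fold enrichment over input was 2.73, with an enrichment p of 3.16e-09.

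The second peak had a log2 fold change of -1.53, or 0.346 of the WT value, with a deposited p of 7.94e-05 and an FDR of 0.000316. It stood at rank 83 from the lowest of the 647 peaks, and the first peak at rank 121. The log2 fold changes of these lower peaks differed by 0.50. The fold enrichment of the second peak was 2.56, with an enrichment p of 1.00e-12.

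The third peak had a log2 fold change of 1.62, which is 3.07 times the WT value, with a deposited p of 5.01e-11 and an FDR of 5.01e-10. It stood at rank 62 from the highest log2 fold change and also at rank 62 from the smallest p of the difference. Its fold enrichment was 2.29, with an enrichment p of 2.51e-14. The smallest p of a difference in RAD50 was thus that of the peak that was higher in the knockout. That peak was also the longest, at 450 bases within blocks against 210 and 211. Whether length affected the p was not tested.

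The lowest and the highest RAD50 peak were 3.15 apart in log2 fold change, a ratio of 8.88 on the linear scale. Over the RAD50 peaks, fold enrichment over input ran from 2.29 to 2.73, a ratio of 1.19. All values were near the median of 2.24 over all listed peaks. The enrichment column is 1 value for the comparison, so the enrichment in WT alone and in NAT10-KO alone was not analysed here. The ratios of 1.19 and 8.88 are therefore unlike measures and are not compared. The mean log2 fold change over the RAD50 peaks was -0.31. Weighted by the length of each peak it was 0.22, on the other side of 0, because the higher peak held 51.7% of the 871 bases covered.

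Across the table, a peak was called lower (log2 fold change under 0 with p under 0.05) in 23.3% of cases and higher in 30.3%, and RAD50 had 2 of 3 peaks called lower and 1 called higher. Among the 273 listed CDS peaks, the class of the second and the third RAD50 peak, the order was reversed, with 99 lower and 63 higher. With the further limit of 1 on the size of the log2 fold change, 11.9% of all peaks were reduced and 13.8% were increased, and all RAD50 peaks passed this limit too. Since RAD50 was picked for this contrast, nothing is read from these counts. With the deposited FDR in place of the p, or with a p under 0.01, the first peak was no longer called, while the second and the third still were.

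**Figure D2:**
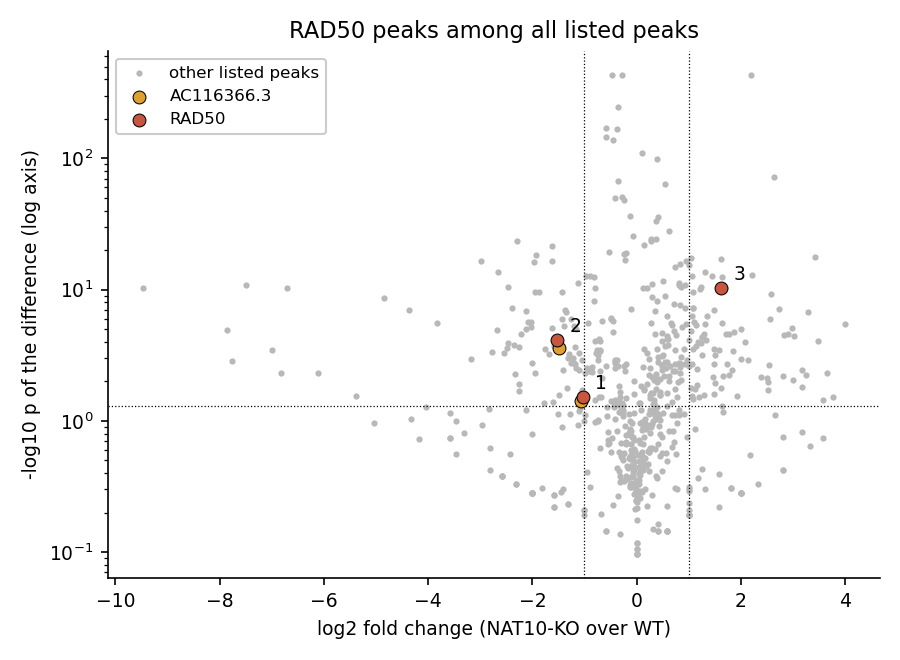
All 647 listed peaks by log2 fold change (NAT10-KO over WT, x axis) and -log10 of the deposited p of the difference (y axis, log scale). RAD50 peaks are numbered in their order along the gene, and dotted lines mark log2 fold changes of -1 and 1 and a p of 0.05. Peak 1 sits at the corner of both limits (log2 fold change -1.03, deposited p of 0.0302), while peaks 2 and 3 are well past them.

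The RAD50 peaks were built from 9 blocks. The first peak had blocks of 74 and 136 bases with a gap of 242 bases. The second had blocks of 62 and 149 bases with a gap of 597 bases. The third had 5 blocks, of 26, 77, 190, 127 and 30 bases in order, with gaps of 4251, 3161, 430 and 759 bases. It covered 450 bases of transcript over a span of 9051 bases, and the blocks of 190 and 127 bases held most of that length (42.2% and 28.2%).

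Few listed peaks were divided as often as the third RAD50 peak. Of the 647 peaks, 411 had 1 block, 142 had 2 and only 14 had 5 or more. A wider span was listed for 22 peaks. In length within blocks the third peak was at rank 62 from the longest. The first and second peaks, at 210 and 211 bases, were close to the median of 208. Lengths came in steps: 92.4% of all peaks were within 2 bases of a multiple of 30, as were all RAD50 peaks, so the deposited edges of a peak move in such steps.

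**Figure D3:**
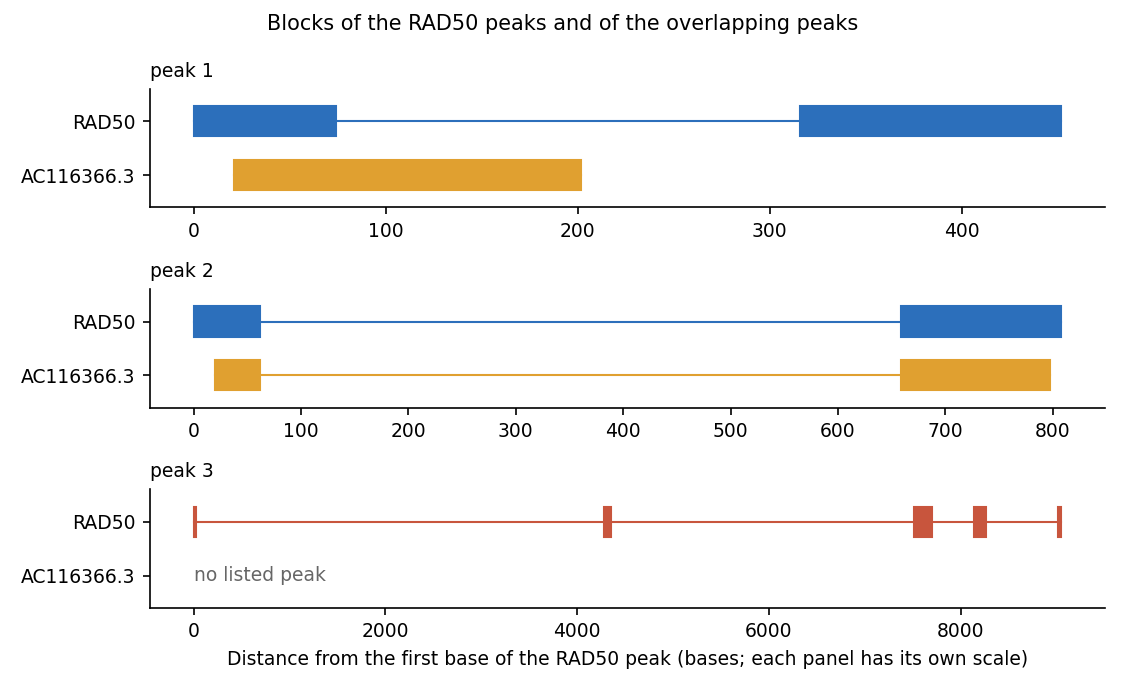
Blocks (bars) and the stretches between them (lines) of each RAD50 peak and of the overlapping AC116366.3 peaks, with distance from the first base of the RAD50 peak in bases on the x axis. Each panel has its own scale. The first AC116366.3 peak continues into the gap of the RAD50 peak, the second has the same inner block edges, and no peak of AC116366.3 is listed at the third.

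A second gene shared the position of both lower peaks. AC116366.3 (ENSG00000283782), a gene annotated as protein coding on the same strand, had 2 listed peaks, and these were the only peaks of another gene within the bounds of RAD50. Its first peak, chr5:132579450-132579630, shared 53 bases with the first RAD50 peak. That is 25.2% of the RAD50 peak and 29.3% of the other. A further 128 bases of it lay in the gap between the RAD50 blocks, so the peaks of the 2 genes followed different transcript models there. Its second peak, chr5:132588048-132588824, shared 180 bases with the second RAD50 peak, which is 85.3% of the RAD50 peak and 100% of the other. The third RAD50 peak, the one that was higher, overlapped no listed peak of another gene.

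The values of both genes were close at each place. At the first, AC116366.3 had a log2 fold change of -1.07 with a deposited p of 0.0389, beside -1.03 for RAD50, and fold enrichments were 2.64 and 2.73. At the second, it had -1.49 with a deposited p of 0.000257, beside -1.53, and fold enrichments were 2.59 and 2.56. The difference in log2 fold change was 0.04 at both places. Overlapping peaks can be made from the same reads, so the AC116366.3 peaks are no second measurement of the decrease, and which of these genes the reads came from was not tested. On chromosome 5, 4 of the 16 lower peaks were RAD50 or AC116366.3 peaks. Without AC116366.3, 14 of 34 peaks on that chromosome (41.2%) were lower and 9 were higher, against 23.3% lower over all listed peaks. The 14 still include the 2 lower RAD50 peaks, which were chosen for their values. Overlapping lower peaks of other genes on the chromosome are also counted as separate peaks. No test was made of this share and nothing is read from it.

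The table holds 23 such pairs of overlapping peaks from different gene identifiers, 13 on the same strand and 10 on opposite strands. Their log2 fold changes differed by a median of 0.097, with a range from 0.005 to 1.85. Of these pairs, 6 were closer in log2 fold change than the RAD50 pairs and 4 differed by more than 0.5.

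**Figure D4:**
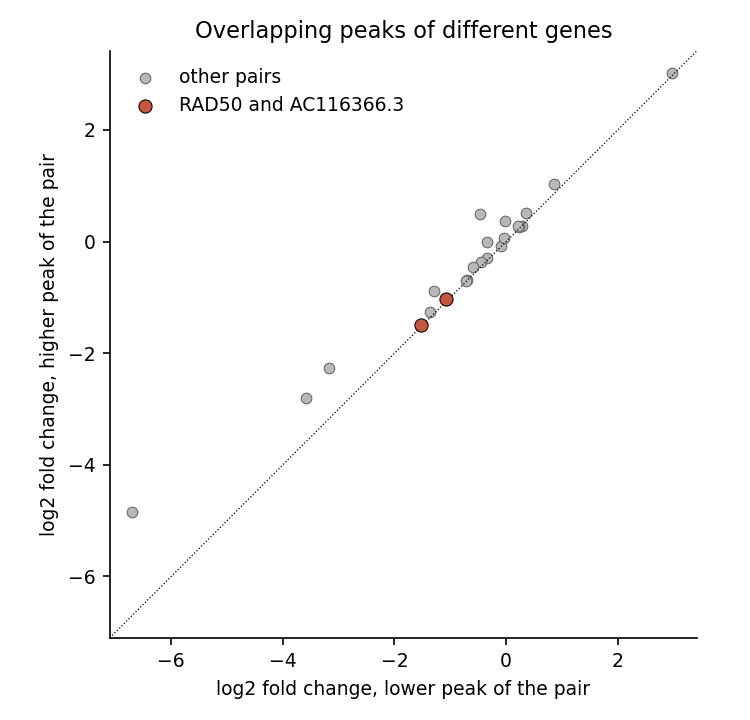
The 23 pairs of overlapping peaks from different gene identifiers, with the log2 fold change of the lower peak of the pair on the x axis and that of the higher peak on the y axis. The dotted line marks equal values. Both RAD50 and AC116366.3 pairs lie near the line, at a difference of 0.04.

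How the table assigned a region to each peak was not tested. Each row of the table carries a single point beside the span of the peak. For 208 of the 236 peaks with several blocks this point was the middle of a block, within 1 base, as it was for the second and the third RAD50 peak. For the other 28 it was the middle of the whole span. The first RAD50 peak was one of these, and its point at 132579654 fell in the gap between its blocks. It was one of 6 peaks whose point lay in no block, of which 4 were assigned to an exon without further division and 2 to the 3′UTR. Of the 155 peaks assigned in this way, 94 belonged to protein-coding genes, so this class is not reserved for non-coding RNA. Whether the blocks of the first RAD50 peak are coding sequence was not analysed here.

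Of the 490 genes, 102 had 2 or more listed peaks, and RAD50 was at rank 5 among them by the distance between its lowest and highest log2 fold change. The median distance was 0.96. RAD50 was chosen for the contrast between its peaks, so nothing is read from its rank. The distance can also grow with the number of peaks, which was 3 in RAD50 and 7 in MYH11. Of the 4 genes with a wider range, MYH11 (smooth muscle myosin heavy chain) and DES (desmin, an intermediate filament protein of muscle) had all their peaks below 0. The other two, RDX (radixin, which links actin to the membrane) and RAD21, had peaks on both sides of 0. Their lower peaks had log2 fold changes of -0.56 (RDX) and -0.27 (RAD21), with deposited p-values of 0.0525 and 0.317. The genes nearest to RAD50 in range were ALG12, RAB10 and FP236383.2, at 3.13, 2.85 and 2.79. Neither ALG12 peak had a p under 0.05 and RAB10 had 1 called peak of 2, while FP236383.2, like RAD50, had called peaks in both directions, 1 lower and 1 higher. Some of these ranges ended at a peak with an enrichment FDR above 0.05. This held for MYH11 (peak at -2.58), DES (-2.81), RDX (3.17) and ALG12 (-3.58). It did not hold for RAD50, RAD21, RAB10 or FP236383.2.

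**Figure D5:**
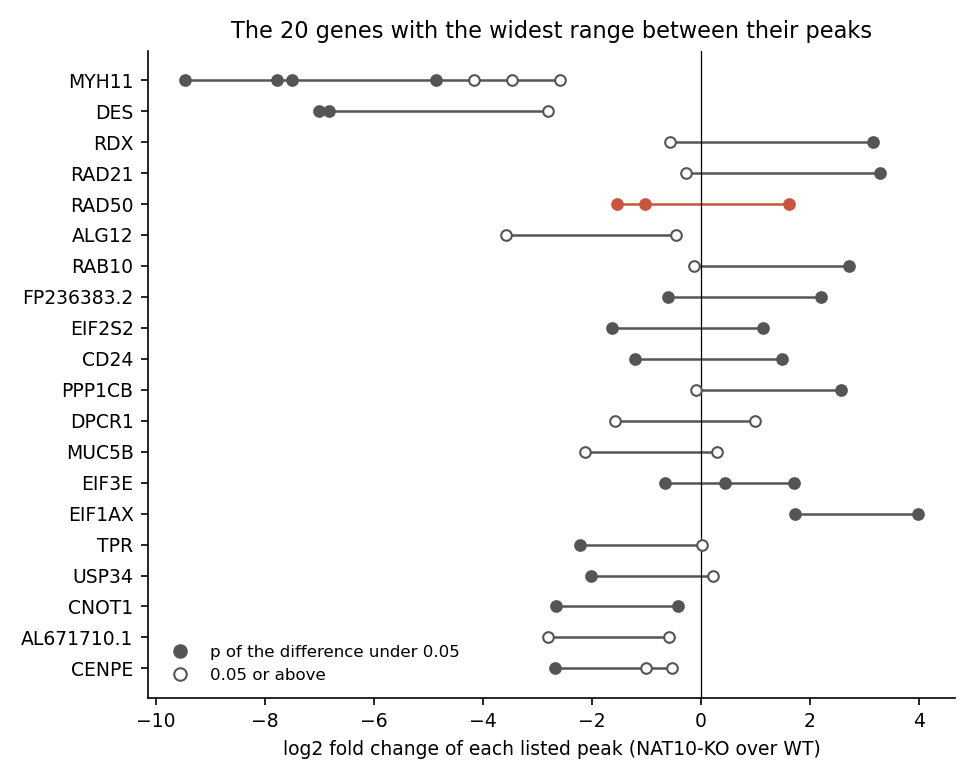
Log2 fold change of every listed peak (points, x axis) in the 20 genes with the widest range between their peaks, ordered from the widest at the top. Filled points had a deposited p of the difference under 0.05 and open points did not. RAD50 (red) spans from -1.53 to 1.62 with all 3 points filled.

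A reduced and an increased peak occurred together in 3 of the 102 genes (2.94%), namely RAD50, CD24 and EIF2S2. CD24, a surface glycoprotein, had both peaks in the 3′UTR. The log2 fold change was -1.20 at the one nearer the 5′ end and 1.49 at the other. EIF2S2, a subunit of the translation initiation factor that brings the first tRNA to the ribosome, had both peaks in the CDS. There the peak nearer the 5′ end was at 1.14 and the other at -1.63, the reverse of the order in RAD50. With no limit on size, 18 genes had a lower and a higher peak. The called peak nearest the 5′ end was lower in 13 of them, RAD50 included, and higher in 5. RAD50 was chosen for its contrast, and calls also differed by region, with 99 of all 273 CDS peaks lower and 63 higher. No test was made of this order and nothing is read from it.

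A list of 46 other symbols of DNA break repair and the SMC family was searched in the same table. Neither MRE11 nor NBN, the partners of RAD50 in the MRN complex, had a listed peak. Peaks were listed for only 490 genes in all, so nothing is read from the absence of a peak. A total of 7 genes on the list had a peak, with 12 peaks, of which 2 were lower, 4 were higher and 6 were not called. These shares, 16.7% lower and 33.3% higher, are near the 23.3% and 30.3% over all listed peaks. Their median log2 fold change was 0.31, against 0.05 over all listed peaks.

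SMC4, a core subunit of condensin, was the only one of the 7 with called peaks in both directions. It had 5 peaks. In order from the 5′ end, their log2 fold changes were -0.91, 0.63, 1.16, 0.38 and -0.30, and the deposited p was under 0.05 for the first 3. The last overlapped a peak of TRIM59 on the opposite strand. SMC3, a core subunit of cohesin, had 1 peak in the CDS with a log2 fold change of -0.79 and a deposited p of 0.0372. RAD21, the cohesin subunit that closes the ring, had 2 peaks in the 3′UTR, one at 3.29 with a deposited p of 1.91e-07 and one at -0.27 with 0.317. STAG2, which binds cohesin to chromatin, had 1 peak in the 3′UTR at 2.38 with a deposited p of 0.00676.

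The remaining genes of the list had 1 peak each and none was called. ATR, a kinase that responds to single-stranded DNA, had a log2 fold change of 1.63 in the CDS with a deposited p of 0.0513. The ATR peak was the only one of the list with an enrichment FDR above 0.05 (log10 FDR of -0.329). XRCC5, the larger Ku subunit of end joining, had 0.24 with a deposited p of 0.264. PRKDC, the kinase that Ku recruits, had 0.05 with a deposited p of 0.468.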

How the data were processed

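acRIP-seq of 1 WT and 1 NAT10-KO A549 library was used, grouped by sample title. The authors filtered reads, aligned them (STAR 2.7.10a and hg38 in the submitters' processing notes), called peaks over input, annotated them and deposited 1 comparison table. The caller and the test are not given in the sources used here. The authors deposited the p-value of enrichment, fold enrichment as a ratio, the log2 fold change of the comparison, and p and FDR as a log10 score, which were turned back into p-values here. The deposited comparison columns are copied as descriptions. The fold change was read as NAT10-KO over WT, because every gene that the study lists as reduced has a peak under -1. That list holds AC116366.3 and not RAD50. Starts were read as counted from 0, since 5 peaks then coincide with the RefSeq start of their gene, against 0 otherwise.

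Overlap meant at least 1 shared base between blocks. The table has no read counts, so depth is unknown and no interval can be given. Named genes were RAD50, genes overlapping its peaks, genes with a reduced and an increased peak, the 3 nearest to RAD50 in range, and the listed repair and SMC genes. Those of wider range (MYH11, DES, RDX) and TRIM59 were named after their values were seen. RAD50 and the lists were chosen with earlier results of these data known. No genome sequence was used here, so no sequence under the peaks is shown. Counting was tested on simulated peaks. The software was Python 3.11.15, pandas 2.3.3, numpy 2.4.6 and matplotlib 3.10.9.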

Additional observations from a re-analysis of the deposited data

How the results depend on the processing

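Of 15 alternatives, 3 could not change a result by construction: the p of enrichment over input, which is under 0.05 at all listed peaks and was tried for the lower and the higher calls, and the subtraction of 1 median from peaks whose distance is taken. Of the other 12, 9 left the counts of RAD50 as reported. RAD50 was chosen by these fold changes, so nothing is read from this. A p of the difference under 0.01 and the deposited FDR under 0.05 each left 1 lower RAD50 peak in place of 2, because the first peak had a p of 0.0302 and an FDR of 0.0562. When an overlap had to cover at least 50% of the shorter peak, 1 RAD50 peak was overlapped by another gene in place of 2, since the first pair shared 29.3% of the shorter peak. Subtracting the median of all listed peaks, 0.05, moved no RAD50 peak across 0. Regions from a reference annotation were not run for want of exon positions. No paired analysis was possible because the groups hold 1 library each. The depth of the libraries is unknown, which limits every single value.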
